A study of Canis lupus familiaris with 4 samples.

Results

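Mitochondrial ribosomal protein genes encode the protein part of the mitoribosome, the ribosome inside mitochondria. They were taken as all genes of the deposited table whose symbol starts with MRPL or MRPS followed by a number. The rule gave 62 genes, each with 1 row, of 30951 genes in all. By the known structure of the mammalian mitoribosome 42 of them belong to the large subunit and 19 to the small subunit. MRPS18A and MRPS30 were counted with the large subunit, where their proteins sit in spite of their names. MRPS36 is a component of the alpha-ketoglutarate dehydrogenase complex, not of the mammalian mitoribosome, and was kept apart.

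The cells were primary mesenchymal stromal cells (MSCs), the plastic-adherent, matrix-producing progenitors of connective tissue, grown from adipose tissue of 4 dogs with 1 culture and 1 library per dog. All 4 were kept in DMEM with fetal bovine serum at 10%, fungizone, streptomycin and penicillin, and stood for 48 h in 24-well plates with no treatment named. The series title places them in work on the antimicrobial activity of the MSC lyosecretome, and the labels give no second group, so no conditions could be compared. The sources used here do not give breed, age, sex or passage number.

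The mitoribosome is built in the mitochondrial matrix from ribosomal RNA that the mitochondrial genome encodes and from proteins that nuclear genes encode and the cytosol makes. It translates only the few proteins that the mitochondrial genome encodes, all of them subunits of the respiratory chain and the ATP synthase. Compared with bacterial ribosomes it has less RNA and more protein, and many of its proteins have no bacterial counterpart. Its genes are transcribed in nearly every cell type and are often used as a readout of mitochondrial biogenesis.

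Reads assigned to genes numbered 22411268, 16246965, 15203607 and 7474011 in dogs 1 to 4, so dog 4 had the shallowest library. The level of a gene is its deposited log2 value minus the median of that library's detected genes, and detection means reads in 2 or more libraries, which 17200 genes met. Levels are given as mean ± SD over n = 4 dogs. They were not divided by transcript length. They therefore serve to compare the dogs for 1 gene, and the order of different genes on this scale is an order of reads and not of transcripts. Of 10 mesenchymal markers 9 (90%, against 33.3% of all detected genes) were called above that median by the test given below. NT5E was called below it. The leukocyte markers MS4A1 and CD3E, the endothelial marker PECAM1 and the epithelial marker CDH1 had 0 reads in every dog. The B-cell receptor gene CD79A had 10221, 6399, 6692 and 2627 reads. Of the 5 endothelial markers the other 4 were detected, and the list summed to 492, 136, 300 and 50 reads in dogs 1 to 4. Of the 4 epithelial and mesothelial markers 2 were detected, and the list summed to 30, 22, 28 and 435 reads. In bulk RNA, fewer cells that express a gene and less of its RNA per cell cannot be told apart.

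Of the 62 genes 61 were detected, and all 61 had reads in all 4 dogs, from 24 to 1180 per library. Their mean levels ran from -0.74 (MRPL34) to 2.42 (MRPS6), and their median was 0.90, 0.77, 0.82 and 0.51 in dogs 1 to 4 (0.75 ± 0.17). A test asked whether each gene lay further than 1 log2 unit from the median detected gene (limma, adjusted by Benjamini-Hochberg over all tested genes), and "above" and "below" refer to it from here on. Of the 61 members 18 (29.5%) were above and none below, and 43 passed in neither direction. Among all 17200 tested genes 33.3% were above and 35.8% below, so the share above was close to the background. The count changed with the libraries used and with the reference: it was 9 without dog 1, 8 without dog 2, 14 without dog 3 and 15 without dog 4. In these fits the reference itself also rose, by 0.18 to 0.26, since genes then needed reads in 2 of 3 dogs. The part of the dog left out was not separated from this rise. Against the median of the 13834 genes with reads in all 4 dogs, which lies 0.80 to 0.84 higher, only MRPS6 was above, only MRPL34 below, and the median of the members was -0.07 ± 0.15.

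Summed over the 62 genes, the members held 0.122% of reads on average. In CPM, the usual count scaled to the total of reads assigned to genes, the sum was 1269 in dog 1 (95% exact Poisson interval 1255 to 1284), 1278 in dog 2 (1260 to 1295), 1348 in dog 3 (1330 to 1367) and 968 in dog 4 (946 to 991). The intervals cover counting error only. Dogs 1 to 3 lay close together and dog 4 stood below them, with a ratio of 1.39 between the highest and the lowest dog.

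The proteins of the catalytic core and of the factor-binding region come first among the large subunit. MRPL3 (ENSCAFG00000006125), a core protein near the peptidyl transferase centre, was among the steadiest members, at 1.74, 1.89, 1.82 and 1.73 in dogs 1 to 4. Its mean of 1.79 ± 0.07 was above (limma, adjusted p = 6.95e-05). MRPL10 and MRPL11 belong to the stalk, where translation factors bind. MRPL10 stood at 1.63, 1.66, 1.84 and 1.38 (1.63 ± 0.19, adjusted p = 0.000689, limma) and MRPL11 at 0.78, -0.07, 0.17 and 0.15 (0.26 ± 0.37, not called). MRPL10 was lowest in dog 4, whereas MRPL11 was highest in dog 1. MRPL1, which forms the mobile stalk at the exit site for transfer RNA, was higher in dogs 1 and 4 (0.75 and 0.73) than in dogs 2 and 3 (0.31 and 0.32).

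Other large subunit proteins line the tunnel for the nascent chain or act as enzymes or relatives of enzymes. MRPL24, near the tunnel exit, stood at 1.13 ± 0.22 and was highest in dog 3. MRPL44, which has an RNase III-like fold, stood at 0.90, 0.85, 1.28 and 0.47 (0.88 ± 0.33). Neither was called. MRPL58 is a peptidyl-tRNA hydrolase that became part of the subunit and can release stalled chains. It had 296, 153, 167 and 30 reads in dogs 1 to 4 and levels of 0.55, 0.00, 0.15 and -0.91 (-0.05 ± 0.62), so dog 4 was well below the others. MRPL12, MRPL23 and MRPL45, which fall under the same roles, were not analysed here under those symbols.

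Among the large subunit genes, levels were highest for MRPL37, MRPL52, MRPL39, MRPL15, MRPL3 and MRPL18. MRPL37, MRPL39 and MRPL52 have no counterpart in bacterial ribosomes. MRPL37 stood at 2.27, 2.33, 2.46 and 1.503 (2.14 ± 0.43, adjusted p = 6.87e-05, limma), high in 3 dogs and lower in dog 4. MRPL52 stood at 2.19, 1.98, 2.06 and 1.93 (2.04 ± 0.11), nearly level across dogs, and MRPL39 at 2.00 ± 0.17. MRPL15 and MRPL18 are homologs of bacterial proteins. MRPL15 repeated the pattern of MRPL37, with 1.78, 2.07, 2.15 and 1.18 (1.80 ± 0.44), while MRPL18 varied less, at 1.73 ± 0.14. MRPS30, in the large subunit in spite of its name, stood at 1.55, 1.70, 1.93 and 1.14 (1.58 ± 0.33, adjusted p = 0.00298, limma) and was also lowest in dog 4.

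The 6 large subunit genes with the lowest levels were MRPL34, MRPL46, MRPL35, MRPL32, MRPL41 and MRPL58. MRPL32, MRPL34 and MRPL35 are homologs of bacterial proteins. MRPL34 had 105, 91, 81 and 32 reads and was steady at -0.74, -0.64, -0.74 and -0.84 (-0.74 ± 0.08). MRPL32 stood at -0.52 ± 0.20 and MRPL35 at -0.54 ± 0.32, both highest in dog 1 and lowest in dog 4. MRPL46, a protein found in mitochondrial and not in bacterial ribosomes, stood at -0.01 in dog 1 and at -0.80, -0.97 and -0.64 in the others (-0.60 ± 0.42). MRPL41 had 254, 169, 113 and 24 reads, and its level went from 0.35 in dog 1 to -1.16 in dog 4 (-0.25 ± 0.67). None of the 6 passed the test in either direction.

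In the small subunit, MRPS6, a homolog of a bacterial platform protein, had the highest mean level of all members, with 1180, 853, 811 and 433 reads. It stood at 2.45, 2.33, 2.30 and 2.60 (2.42 ± 0.14, adjusted p = 1.29e-06, limma). It was one of only 4 detected members that were highest in dog 4 (6.6%, against 36.8% of all detected genes). MRPS31, which has no bacterial counterpart, stood at 2.33, 2.01, 1.66 and 1.79 (1.95 ± 0.29) and was highest in dog 1. MRPS2 (1.58 ± 0.12) and MRPS18B (1.62 ± 0.22) were the other small subunit genes above, and MRPS9, at 1.22 ± 0.28, did not pass the test (adjusted p = 0.116, limma). MRPS12, the decoding-site protein in which bacterial mutations give streptomycin resistance, stood at 1.01, 0.87, 0.62 and 0.79 (0.82 ± 0.16). MRPS27, which belongs to the pentatricopeptide repeat proteins, stood at 1.11, 0.99, 1.13 and 0.83 (1.02 ± 0.14). Both were steady between dogs and not called.

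MRPS7, a protein of the head of the subunit, stood at 0.81, 0.45, 0.28 and -0.21 (0.33 ± 0.42), highest in dog 1 and lowest in dog 4. MRPS26 (0.15 ± 0.17), MRPS28 (-0.01 ± 0.51) and MRPS34 (-0.12 ± 0.37) were near the median detected gene. MRPS23, which has no bacterial counterpart, had 275, 97, 179 and 24 reads. Its levels of 0.46, -0.56, 0.24 and -1.16 (-0.25 ± 0.74) gave the largest SD of all members, with dogs 1 and 3 high and dogs 2 and 4 low. MRPS16 and MRPS22, known for mutations in patients with combined respiratory chain deficiency, were not analysed here under those symbols.

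MRPS18A, MRPS18B and MRPS18C form the one set of paralogs among the members, all of them related to 1 bacterial ribosomal protein and each with its own place in the mitoribosome. MRPS18B stood at 1.77, 1.52, 1.83 and 1.36, MRPS18A at 0.71, 0.46, 0.77 and 0.45, and MRPS18C at 0.68, 0.28, 0.65 and 0.04. In all 3 genes dogs 1 and 3 were above dogs 2 and 4. The 4 values of MRPS18B did not overlap with those of the other genes, in levels that are not per length. MRPS18B was above, and MRPS18A and MRPS18C were not called.

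MRPS36 was the one member not detected, with 2 reads in dog 1 and 0 in dogs 2 to 4. At 0 reads a library allows up to 0.185, 0.197 and 0.401 CPM in dogs 2, 3 and 4 (3 reads of the total, counting error only). These limits hold for reads assigned to this gene model. Whether the model covers the expressed locus could not be checked here.

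The large subunit had 14 of 42 genes above (33.3%) and the small subunit 4 of 19 (21.1%), against 33.3% of all tested genes. Their medians were 0.73 ± 0.16 and 0.78 ± 0.16, and the median of the large minus that of the small subunit was -0.17, 0.05, 0.17 and -0.26 in dogs 1 to 4 (-0.05 ± 0.20), with no common sign. Classed by their standard ribosomal protein names, 10 of 35 homologs of bacterial ribosomal proteins (28.6%) were above. The same held for 8 of 26 proteins specific to mitochondria (30.8%), a class that includes MRPS18A and MRPS18B. Both shares were close to that of all tested genes. The medians of these classes were 0.74 ± 0.18 and 0.78 ± 0.18, and their difference per dog did not exceed 0.09 in size. The log2 ratio of summed reads of the large over the small subunit was 1.01 and 1.02 in dogs 1 and 4 and 1.22 and 1.27 in dogs 2 and 3. These class values are descriptions and carry no test.

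The median SD of the members between dogs was 0.26, against 0.36 over all detected genes and 0.29 over the 6714 detected genes in the same range of levels. An SD under 0.5 was found for 54 of 61 members (88.5%), for 70.0% of all detected genes and for 82.5% of those in the same range. The 4 dogs lay within 0.5 log2 units of each other for 25 members (41.0%, against 24.1% of all detected genes) and more than 1 log2 unit apart for 9 (14.8%, against 35.9%). No member passed the test of variability against genes of the same level (F test on limma's trended prior, smallest adjusted p among members = 0.983), and none had an unadjusted p under 0.05. Over all genes 0% passed, with 895 of 17200 at an unadjusted p under 0.05. With 4 dogs this test finds only large differences between dogs, so these counts do not show that the members were equal between dogs.

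**Figure D1:**
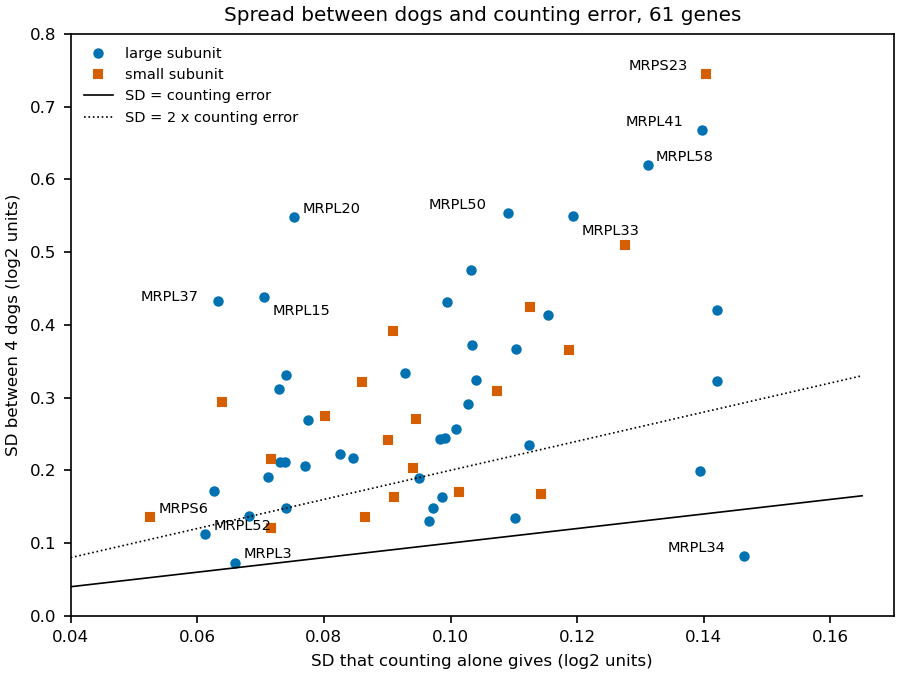
SD of each detected member between the 4 dogs (vertical axis) against the SD that counting of its reads alone gives (horizontal axis), both in log2 units, with large subunit genes as circles and small subunit genes as squares. The solid line marks equality and the dotted line 2 times the counting error; 46 of 61 genes lie above the dotted line, MRPL3 lies near the solid line and MRPL34 below it.

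The depth set a floor under these spreads. The SD that counting alone gives had a median of 0.095 over the members, and the observed SD exceeded 2 times that value in 46 of 61 (75.4%, against 78.2% of the 13834 genes with reads in all dogs). MRPL3, with an SD of 0.073 against 0.066 from counting, and MRPL34, with 0.082 against 0.146, showed no spread beyond counting. MRPS23 (0.745 against 0.140), MRPL41 (0.667 against 0.140), MRPL58 (0.619 against 0.131), MRPL50 (0.554 against 0.109) and MRPL33 (0.549 against 0.119) had the largest SDs. MRPL50, which has no bacterial counterpart, was highest in dog 3, at 1.17, with 0.25, 0.46 and -0.15 in dogs 1, 2 and 4. MRPL33, a homolog of a small bacterial protein, stood at 0.87, 0.20, -0.30 and -0.28. Of the 5 genes with the largest SDs, MRPL50 was highest in dog 3 and the other 4 in dog 1.

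The spread had a direction in common for many members, though not for all. Dog 4 was the lowest dog for 39 of 61 members (63.9%), against 28.8% of all detected genes and 35.8% of those in the same range of levels. Dog 1 was the highest for 28 (45.9%, against 22.4% and 25.6%). The median deviation of a member from its own mean was 0.17 in dog 1, 0.03 in dog 2, 0.05 in dog 3 and -0.20 in dog 4, whereas over all detected genes it lay between -0.03 and 0.04. All 19 small subunit genes were above their own mean in dog 1, as were 32 of 42 large subunit genes (76.2%). The shares in dog 1 were 51.6% of all detected genes and 52.6% of those in the same range of levels. In dog 4, 3 of 19 small subunit genes (15.8%) and 5 of 42 large subunit genes (11.9%) were above their own mean, against 53.9% and 47.1%. Without dog 4 the median SD of the members was 0.18, against 0.28 over all detected genes and 0.23 over those in the same range of levels. With 1 library per dog, a difference between dogs cannot be told apart from one between cultures or libraries. Dog 4 also had the fewest reads and stood apart in marker genes. Its summed CPM were 58.2 for 4 epithelial and mesothelial markers (1.34 to 1.84 in the others), but all of the 435 reads of dog 4 were of KRT18, which had 9, 9 and 25 in dogs 1 to 3. In dog 4 the mesothelial marker UPK3B, with 20, 13 and 3 reads in dogs 1 to 3, was at 0, as were EPCAM and CDH1. The CPM sums of dog 4 were 5.75 for 2 adipocyte markers (0.0616 to 1.78), 73.7 for 4 muscle markers (31.1 to 38.1) and 352 for 7 leukocyte markers (394 to 457, nearly all CD79A). For the 10 mesenchymal markers they were 87994 against 130020 to 135282. The 5 endothelial markers did not set dog 4 apart from dog 2: their sums were 6.69 and 8.37 in dogs 4 and 2, and 21.95 and 19.73 in dogs 1 and 3. The part of depth and of these marker differences in the pattern was not tested.

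**Figure D2:**
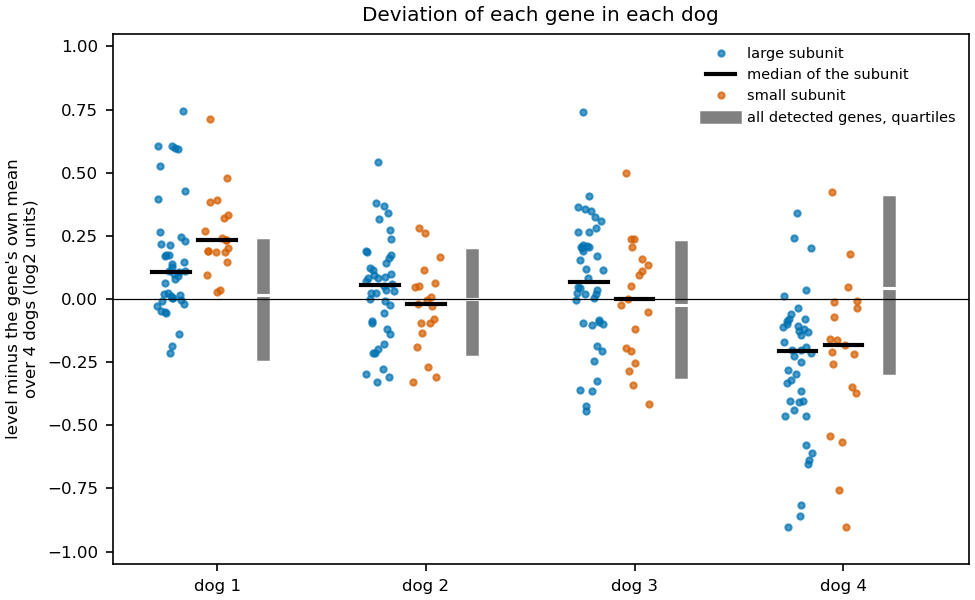
Deviation of each detected member from its own mean over the 4 dogs, in log2 units, for the large subunit (42 genes) and the small subunit (19 genes) in each dog, with black bars at the medians. Grey bars span the quartiles of all 17200 detected genes, with their median in white; in dog 4 most members lie below 0, and in dog 1 all 19 small subunit genes lie above 0.

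The 5 mitoribosomal proteins with other symbols were mixed. DAP3, the GTP-binding protein of the small subunit, stood at 2.13, 2.08, 2.52 and 2.54 (2.32 ± 0.25), and PTCD3, a pentatricopeptide repeat protein of the same subunit, at 2.17 ± 0.17. Both were above. CHCHD1 (0.07 ± 0.60) and AURKAIP1 (0.34 ± 0.25), also of the small subunit, were neither. GADD45GIP1, a large subunit protein at the tunnel exit, was below at -1.57 ± 0.47 (adjusted p = 0.0381, limma), with 63, 62, 20 and 13 reads. It was highest in dog 2 and lowest in dog 3.

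Of 20 measured genes for mitoribosome assembly and ribosomal RNA modification, 4 were above (20%, against 33.3% of all tested genes) and 1 below (5%, against 35.8%). Their median was 0.49 ± 0.13. The RNA helicase DHX30 lay between 3.03 and 3.098 in all 4 dogs (3.05 ± 0.03), the GTPase ERAL1, which chaperones the small ribosomal RNA, at 2.02 ± 0.28, and RCC1L, an exchange factor of large subunit assembly, at 1.45 ± 0.31. MTERF3 was also above, at 1.32 ± 0.17. MRM2, a methyltransferase of the large ribosomal RNA, was below at -3.21 ± 0.56, with 12, 6, 0 and 1 reads, and TFB1M, which methylates the small ribosomal RNA, was not called at -1.44 ± 0.31. Dogs 1 and 4 were each the lowest for 8 of these 20 genes (40%, against 19.7% of all detected genes for dog 1 and 28.8% for dog 4). The median deviation of the 20 genes was -0.15, 0.13, 0.16 and -0.06 in dogs 1 to 4.

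Of 17 genes listed as mitochondrial translation factors 5 (29.4%) were above and none below, against 33.3% and 35.8% of all tested genes. The list was broad and also held LRPPRC, SLIRP and OXA1L, which are not translation factors in the strict sense. LRPPRC, which stabilises mitochondrial messenger RNA, stood at 3.98 ± 0.22, and the elongation factor genes GFM1 at 3.14 ± 0.06, TSFM at 3.08 ± 0.34 and TUFM at 2.32 ± 0.19. OXA1L, which inserts the new chains into the inner membrane, stood at 2.23 ± 0.27. SLIRP, the partner of LRPPRC, was not called at -1.14 ± 0.55 with 130, 48, 67 and 13 reads, and the release factor gene MTRF1L stood at -0.87 ± 0.09. Of 17 genes listed for mitochondrial transcription and RNA processing 9 (52.9%) were above and none below, against the same shares of all tested genes. This list also holds the DNA polymerase gene POLG and the helicase gene TWNK, which serve DNA replication, so its share is not that of transcription and RNA processing alone. POLG, the mitochondrial DNA polymerase, stood at 2.84 ± 0.19, FASTK at 2.44 ± 0.23 and TBRG4 at 2.29 ± 0.12. The mitochondrial RNA polymerase gene POLRMT stood at 2.10 ± 0.12, whereas the helicase gene TWNK (-1.07 ± 0.27) and MTERF1 (-1.06 ± 0.50) were not called. Among 11 regulators known to act on such genes, 5 (45.5%) were above, with SP1 (3.60 ± 0.15), PPRC1 (3.22 ± 0.20) and MYC (3.02 ± 0.36) leading. GABPA, whose factor binds promoters of many mitochondrial genes, stood at 2.19, 2.17, 2.18 and 1.34. The coactivator PPARGC1A was below at -3.11 ± 0.62 with 5, 7, 0 and 5 reads, and PPARGC1B stood at -0.69 ± 0.20.

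The messenger RNAs that mitoribosomes translate did not follow the dogs in the same way when taken gene by gene. The 13 mitochondrially encoded protein genes summed to 27464, 21621, 31533 and 22026 CPM in dogs 1 to 4. In this sum dog 4 was low too, at 85.8% of the mean over dogs, beside 84.3% in dog 2. Of these 13 genes 12 were above (92.3%, against 33.3% of all tested genes), and MT-CO1 (10.55 ± 0.32), MT-CO3 (8.14 ± 0.35) and MT-ND5 (7.35 ± 0.40) led. MT-ND6 (2.36 ± 0.99) was the lowest of those above, and MT-ATP8 (-0.97 ± 2.01) was not called. By level, dog 2 was the lowest dog for 11 of the 13 (84.6%, against 20.3% of all detected genes). Dogs 1 and 4 were each the highest for 6 (46.2%, against 22.4% for dog 1 and 36.8% for dog 4). The median SD of these 13 genes was 0.77, against 0.26 for the mitoribosomal proteins. The log2 ratio of summed reads of the members over these genes was -4.44, -4.08, -4.55 and -4.51 in dogs 1 to 4, highest in dog 2.

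For 54 detected cytosolic ribosomal protein genes dog 4 was the lowest in 45 (83.3%, against 28.8% of all detected genes). Dog 1 was the highest in 32 (59.3%, against 22.4%). The median deviations of these genes were 0.29, 0.11, 0.07 and -0.46. Their summed CPM in dog 4 was 66.1% of the mean over dogs, against 79.6% for the mitochondrial ribosomal proteins.

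**Figure D3:**
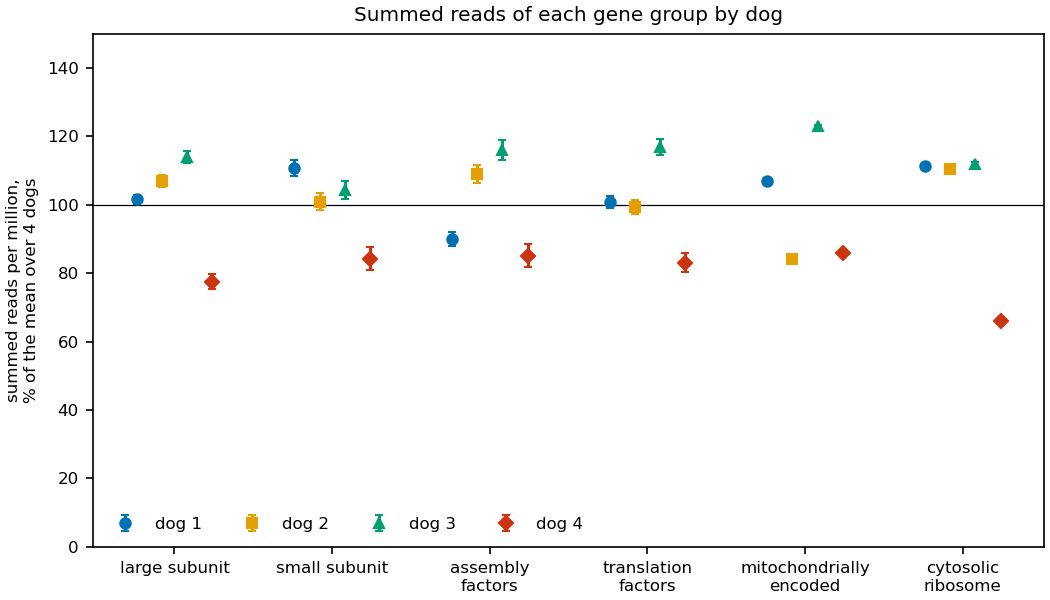
Summed CPM of each gene group in each dog, as a percentage of that group's mean over the 4 dogs (line at 100); bars are 95% exact Poisson intervals, which cover counting error only. Dog 4 is lowest for both subunits, for assembly and translation factors and for the cytosolic ribosome, and dog 2 is lowest for the mitochondrially encoded genes.

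Some members share their genomic place with another gene, taken over whole gene spans, and overlap of exons was not checked. The strand setting of the read counting was not found in the sources used here. In shared stretches, their reads and a neighbour's may therefore not have been told apart. In the RefSeq annotation of the assembly UU_Cfam_GSD_1.0, which is not the build of the counts and was used for names only, 61 of 62 members were matched. Of these 14 (23.0%) overlap another protein-coding gene, as do 22.8% of all protein-coding genes. Among the genes named here these are MRPL52 (with SLC7A7), MRPL24 (RRNAD1), MRPL49 (SYVN1), MRPL43 (TWNK), MRPL50 (ZNF189), MRPL34 (ABHD8), MRPS12 (FBXO17), MRPS18C (ABRAXAS1) and MRPS7 (MIF4GD and GGA3). MRPL43 thus lies with the mitochondrial helicase gene TWNK, which had 80, 73, 42 and 31 reads beside 251, 198, 188 and 67 of MRPL43.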

How the data were processed

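Per the labels' protocols, 10 ng of total RNA from each of 4 canine adipose MSC cultures went into a stranded library kit that removes ribosomal RNA. The submitters' processing notes name the build CanFam3.1 and the tools STAR 2.7.11a, Trimmomatic 0.39, FastQC 0.12.1 and DESeq2. Not given in the sources used here were the counting tool, the strand setting and the annotation release. The authors deposited log2 values after DESeq2's variance-stabilizing transformation, per the name of their table. Columns were matched to dogs by number. Inverting the transformation gave whole reads for 100% of values above the lowest (tolerance 0.01 reads), which served for depth and read shares.

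Levels were tested on the log2 values, centred on each library's median detected gene, with treat at a distance of 1 in limma 3.58.1 under R 4.3.3. The model had only an intercept and its variance prior followed the mean level. Adjustment was by Benjamini-Hochberg over 17200 genes at 0.05. For variability, each variance was divided by its prior value (F test). The planned correction for coding length was not made, since lengths were not used here. The p-values for levels take the spread between these cultures, moderated by the prior, as their error. Both tests were also run on simulated data, and the outcome is not given here. Counting error came from Poisson noise carried through the transformation. Python 3.11.15 with numpy 2.4.6 and pandas 2.3.3 gave the summaries.

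The members and lists were chosen with earlier results of these data known. Named members were the 6 highest and 6 lowest of the large and the 5 highest and 5 lowest of the small subunit by level, the 5 largest and 3 smallest SDs, those with 1 dog standing apart, the undetected, the MRPS18 paralogs and a set of known role; of each other list, the 3 highest and 2 lowest. MTERF3, TUFM, OXA1L, POLRMT and GABPA were added after their values were seen. Alternatives covered the reference, distance, scale, filters, prior, summary and leaving out each dog.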

Additional observations from a re-analysis of the deposited data

Results flagged for a closer look

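For each gene, the gap between the extreme dog and its neighbour was divided by the range of the 4 levels and set against Dixon's 95% critical value. The ratio passed it for 6 of 61 detected members (9.84%) and for 5.36% of all detected genes, and chance alone marks about 1 group in 20. In 5 of the 6, dog 4 was the low one, and its library had the fewest reads, whose part in this was not tested. MRPL20, a homolog of a bacterial protein, had a level of 0.89 in dog 4 against 1.95, 2.07 and 1.90 in dogs 1 to 3, and 126 reads against 823, 712 and 611. MRPL17 stood at 1.18 in dog 4 and at 1.75, 1.80 and 1.83 in the others. MRPL49 stood at 0.29 against 0.74 to 0.81, and MRPL43 at 0.058 against 0.31 to 0.34. In the small subunit, MRPS28 stood at -0.77 in dog 4 and at 0.32, 0.25 and 0.15 in the others. MRPL28 was the exception, with dog 2 high at 1.81 and the others at 1.36, 1.40 and 1.42.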

How the results depend on the processing

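The members called above the median detected gene numbered 18, and 20 on a log2 scale with a pseudocount of 1, 28 at a distance of 0.5 and 1 at a distance of 2. With the median over genes with reads in all 4 dogs as reference, 1 was above and 1 below, and the median level of the members was -0.072. With all 30951 genes tested, 1 member was below, the undetected MRPS36. Leaving out 1 dog gave 9, 8, 14 and 15 above without dogs 1, 2, 3 and 4, and the median level ranged from 0.44 (without dog 1) to 0.59 (without dog 4). In these fits the reference itself rose by 0.18 to 0.26, since genes then needed reads in 2 of 3 dogs. MRPL3, MRPL18, MRPL37, MRPL39, MRPL52, MRPS6 and MRPS31 were above in all 4 of them, and the other 11 lost the call in at least 1, MRPL53 in each. No member passed the variability test under any alternative run. The median deviation in dog 4 was -0.20 after quantile normalization, -0.22 on the log2 scale with a pseudocount and -0.18 with the other reference, all chosen after seeing the data. Adding several rows of a symbol changes nothing here, since each symbol had 1 row, and the length correction was not run. No paired analysis was possible because the labels give 1 group.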
